A study of Mus musculus with 12 samples.

Results

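The Cd28, Ctla4 and Icos cluster was examined as the stretch of chromosome 1 from 60750000 to 61100000 in the mouse build mm9, which holds the 3 genes in this order. Its members are the FoxP3 ChIP-seq peaks whose summit (the position of highest signal in a peak) lies in this window. Overlapping peaks of the 6 libraries (1 bp or more in common) were merged, which gave 59 regions of 24765 on chromosomes 1 to 19, X and Y. FoxP3 was immunoprecipitated with an affinity-purified rabbit polyclonal antibody from CD4+ Treg cells of C57BL/6J mice, taken from lymph nodes and spleen. Cells came from FoxP3WT:hCD2 mice (WT) or FoxP3A384T:hCD2 mice (A384T), so both genotypes carry the human CD2 reporter by which the cells were sorted magnetically, and all cells were freshly isolated and untreated. Each genotype has 3 ChIP libraries with 1 peak list apiece. A further 6 input libraries enter no comparison here. The comparison asks where along the cluster FoxP3 carrying the A384T substitution is found relative to wild-type FoxP3. The labels give neither the age of the mice nor whether replicates came from separate animals, so p-values here speak of variation among these 6 libraries, part or all of which may be technical. Where 3 values of a genotype are given in a row, they are those of replicates 1, 2 and 3 in this order. ChIP measures no expression, so the sorted cell type could not be set against marker genes.

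FoxP3 is the forkhead transcription factor that defines regulatory T (Treg) cells, and the A384T substitution, known from patients with the immune disease IPEX, lies in its forkhead DNA-binding domain. Cd28, Ctla4 and Icos encode related receptors of the immunoglobulin superfamily on T cells. CD28 binds CD80 and CD86 on antigen-presenting cells and gives the costimulatory signal of T cell activation. CTLA-4 binds the same ligands more tightly and restrains activation; it is abundant in Treg cells, which use it to strip CD80 and CD86 from antigen-presenting cells. ICOS binds its own ligand and supports effector T cells and activated Treg cells.

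In RefSeq annotation of the later build GRCm38.p6, Cd28, Ctla4 and Icos are the only protein-coding genes from the start of Cd28 to the end of Icos, with Raph1 before Cd28 and Pard3b after Icos as the next ones. That build's coordinates differ from mm9 and were not converted, so peaks below are given by mm9 position and not assigned to a gene. Of the 3 members, 1 matched the RefSeq promoter table used here. That member, Ctla4, is shown because it alone matched, and to let a reader see forkhead-like letters in the cluster. The Ctla4 promoter, 250 bases before to 50 after the gene's start (GRCm38.p6, chr1:60908775-60909074, plus strand), reads 5′ to 3′, with the core TGTTT or its reverse complement AAACA in capitals.
Ctla4 promoter: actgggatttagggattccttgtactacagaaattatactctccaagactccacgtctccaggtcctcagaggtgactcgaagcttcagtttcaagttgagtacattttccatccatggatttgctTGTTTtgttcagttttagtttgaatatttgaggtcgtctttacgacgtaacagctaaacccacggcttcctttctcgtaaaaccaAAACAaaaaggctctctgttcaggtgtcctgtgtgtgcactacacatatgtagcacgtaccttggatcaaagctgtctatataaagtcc
The core matched 1 time on each strand, and 22.0% of 32544 promoters of the same length held as many matches on both strands together. The longer forkhead consensus TGTTTAC, which contains the core, had 0 matches on either strand, and 3.66% of promoters held it. Whether a FoxP3 peak lies on this stretch was not analysed here.

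FoxP3 peaks were denser in the cluster than in the stretches on either side. The 59 regions compare with a median of 1 per 350 kb tile over 7541 tiles of the genome, of which 15 (0.199%) held as many. The neighbouring 350 kb windows held 11 regions before the cluster and 8 after it. Of the 59, 9 regions had a peak in all 6 libraries, a number reached by 3 of the 7541 tiles, and neither neighbouring window had any. Regions found in all 6 libraries made up 15.3% of the regions in the cluster and 3.88% of those in the genome.

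**Figure D1:**
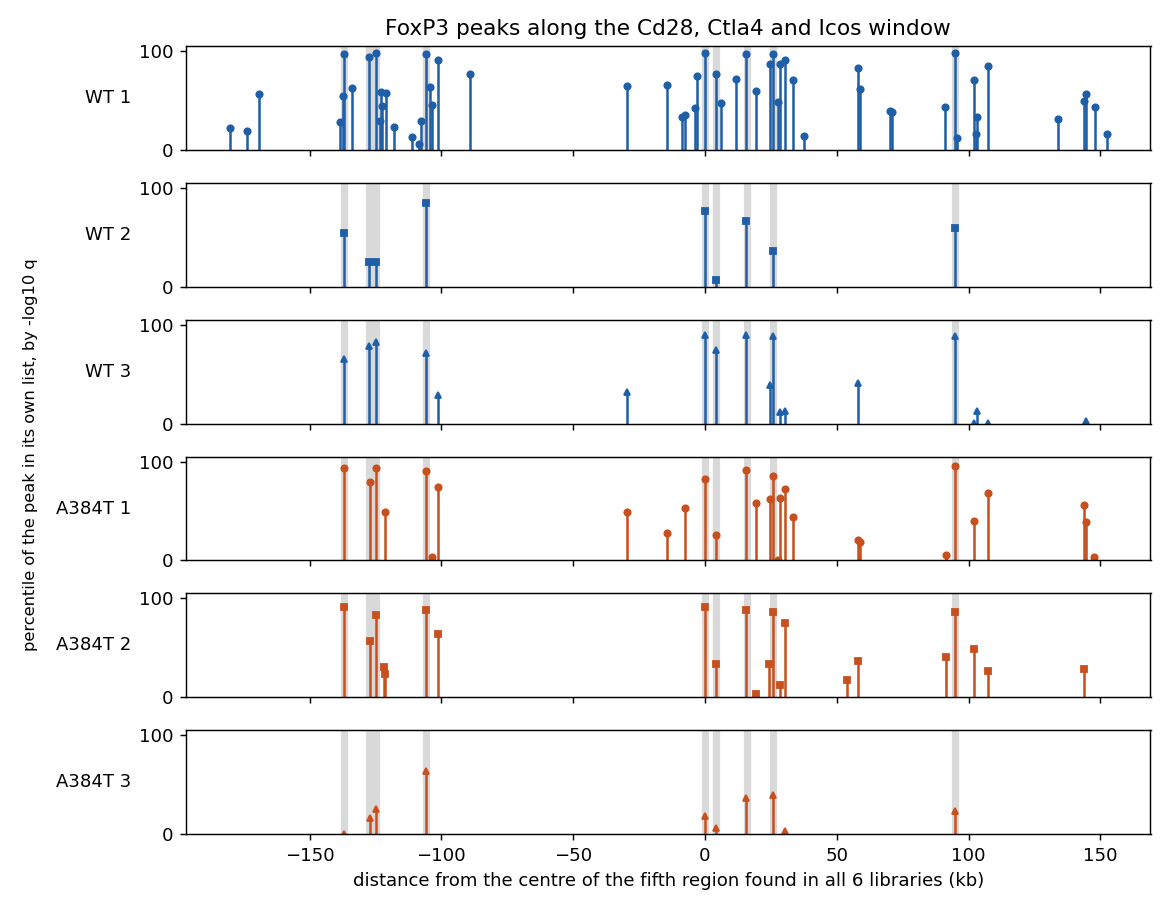
Each track is a library and each line the strongest peak of a region at its summit, as distance in kb from the centre of the fifth region found in all 6 libraries; height is the percentile of the peak in its own list by -log10 q. Grey bands mark the 9 regions with a peak in every library, which stand in 2 groups and a single region to the right.

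The number of peaks followed the length of each library's list. For WT the window held 58, 9 and 20 peaks out of 20723, 1746 and 3905. For A384T it held 31, 23 and 11 out of 18147, 6657 and 2050. Both replicate 1 libraries, sequenced with 51 bp tags where the others had 49 bp, had the longest lists and the fewest unique tags (17520951 and 18255500, against 21752899 to 25386770). Their total tags were 28696969 (WT) and 26076646 (A384T), against 27319740 to 31140666. Redundant tags made up 39% and 30% of these, against 18% to 21%. Their estimated fragment lengths were 150 and 149 bp, against 123 to 135 bp. Whether these differences bear on list length was not tested. Absence from a list means that no peak passed the authors' q-value cutoff of 1e-10, and is no measure of absent binding.

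Most regions of the shorter lists recurred in the longer ones. All 9 regions of WT replicate 2, the shortest list, were the 9 found in every library. The 10 regions of A384T replicate 3 were those 9 and the region at 60.9703 Mb, and the 29 of A384T replicate 1 were all present in WT replicate 1. WT replicate 1 alone held 27 of the 29 regions seen in a single library, at a median 32.9 percentile of its list (5.62 to 76.5). The strongest of these lay at 60.8507 Mb (60850560 to 60850903), with an authors' fold enrichment of 22.4 over control. The other 2 of the 29 belonged to A384T replicate 2, at 60.8182 and 60.9940 Mb.

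The 9 regions in every library fell into a left group of 4, a right group of 4 and a single region further right. The left group, named by region midpoints, comprised 60.8031 Mb (60802809 to 60803471), 60.8127 Mb (60812305 to 60813062), 60.8152 Mb (60814836 to 60815557) and 60.8342 Mb (60833710 to 60834630). The right group comprised 60.9400 Mb (60939486 to 60940481), 60.9440 Mb (60943752 to 60944344), 60.9557 Mb (60954975 to 60956516) and 60.9659 Mb (60965588 to 60966213). The single region was 61.0347 Mb (61034527 to 61034915). The stretch between the left and right groups, 104.9 kb long, contained the longest interval with no peak in any library, 59.3 kb from 60850903 to 60910207. The regions were 389 to 1542 bp wide, and in 8 of the 9 the strongest summits of the 6 libraries lay within 42 to 165 bp of each other.

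The remaining one, the region at 60.8127 Mb, had its strongest summit at a different position in each genotype. By -log10 q the strongest WT summits were at 60812465, 60812480 and 60812463. The strongest A384T summits were at 60812915, 60812886 and 60812839. The 3 WT summits thus stood on the left and the 3 A384T summits to the right, and the nearest pair across genotypes was 359 bp apart. The means differed by 410.7 bp, with an SD of 9.29 bp among WT and 38.4 bp among A384T libraries (n = 3 each). These SDs give the scatter of the chosen summit, not how firmly that summit was the strongest. Among the 962 regions found in all 6 libraries genome-wide, 5 (0.520%) had strongest summits at least 100 bp apart with no overlap between genotypes. Of those 5 this region had the widest gap, followed by one of 163 bp on chromosome 8. In the cluster it was 1 of 9, and the next largest gap was 14 bp, at 61.0347 Mb.

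Both summits carried called peaks in 3 libraries, of both genotypes. In WT replicate 1 the left peak had a pileup (scaled tags at the summit) of 107 and a -log10 q of 131.4, and the right peak 95.0 and 86.1. In A384T replicate 1 the left peak had 53.0 and 43.2, and the right peak 68.0 and 70.7. In A384T replicate 2 the left peak had 30.3 and 23.5, and the right peak 51.1 and 34.5. The right-to-left ratio of pileup, which needs no scale shared between libraries, was 0.89 in WT replicate 1, 1.28 in A384T replicate 1 and 1.69 in A384T replicate 2. The other 3 libraries had 1 peak each. WT replicate 2 had only the left peak (pileup 38.7) and A384T replicate 3 only the right peak (pileup 27.0). In WT replicate 3 a single peak from 60812350 to 60812913 spanned most of the region, with its summit on the left.

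The split at 60.8127 Mb was noticed in these data, so it is a description and no test of it is given. It held by pileup, and with WT replicate 1 or 2 or any A384T library left out (359 to 406 bp). Only the wide peak of WT replicate 3 joins both summits into a region of all 6 libraries, so without it the region splits and gives no gap. It did not hold by fold enrichment, which divides the pileup by the local control. By fold the left peak was the higher in A384T replicate 2 (11.4 against 10.4), and the gap between the genotypes shrank to 25 bp.

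**Figure D2:**
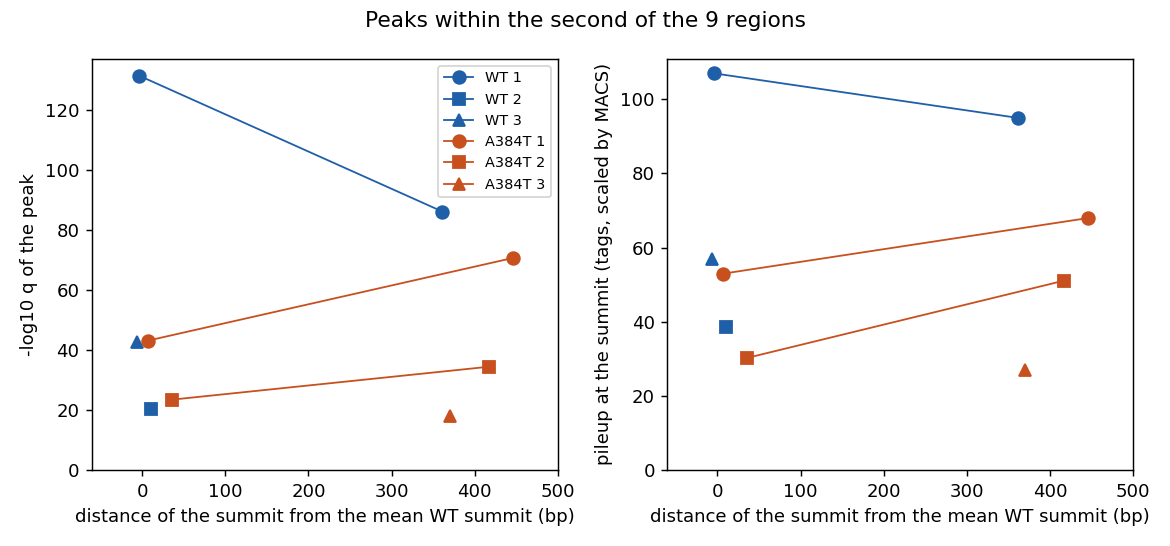
Peaks within the region at 60.8127 Mb, by distance in bp of the summit from the mean WT summit (x axis) and by -log10 q (left) or pileup in scaled tags (right); lines join peaks of one library. The line of WT replicate 1 falls to the right and those of A384T replicates 1 and 2 rise, and the libraries with 1 peak have it on the left in WT and on the right in A384T replicate 3.

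The single region at 61.0347 Mb had the highest pileup of the 9 in 5 of the 6 libraries. Its WT pileups were 162, 56.3 and 76.0, and its A384T pileups 106, 85.2 and 44.0. In WT replicate 2 the region at 60.8342 Mb was higher, at 59.8. At the other end, 60.9440 Mb had the lowest pileup of the 9 in every library, from 24.0 to 55.0. By -log10 q the leading region varied: 60.8152 Mb in WT replicate 1, 60.8342 Mb in WT replicate 2 and A384T replicate 3, 60.9400 and 60.9557 Mb tied in WT replicate 3, 61.0347 Mb in A384T replicate 1 and 60.8031 Mb in A384T replicate 2. No region thus led by -log10 q in every library of a genotype. The low end of the order varied less. There 60.9440 Mb took places 9, 9 and 7 of the 9 in WT and 9, 9 and 8 in A384T. The region at 60.8127 Mb took places 8, 8 and 6 in WT and 8, 8 and 7 in A384T.

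Within their own lists the 9 regions ranked high in the long lists and lower in the short ones. Their median percentile by -log10 q was 96.9, 53.9 and 82.3 for WT, and 90.3, 86.4 and 23.3 for A384T. The strongest peak of the window stood at the 98.1, 84.1 and 89.3 percentile in WT and at 95.3, 91.7 and 63.9 in A384T. The means were 90.5 ± 7.07 and 83.6 ± 17.2 (SD, n = 3 each). The difference of -6.89 was smaller than the spread among libraries (exact permutation test, two-sided, p = 0.7, where 3 against 3 cannot go below 0.1), and it turned to 2.99 without A384T replicate 3.

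To compare lists of unequal length, each of the 9 was ranked by -log10 q among the 962 regions found in all 6 libraries. For 3 of the 9 every WT library ranked higher than every A384T library, and for 0 of the 9 every A384T library ranked higher. Genome-wide 13.3% of the 962 regions were higher in WT and 11.5% higher in A384T in this sense, or 24.8% in either direction. The clearest was 60.9400 Mb, at the 64.7, 62.1 and 62.4 percentile in WT and at 16.5, 53.7 and 11.2 in A384T. The WT values lay close together and the A384T values were scattered below them. At 60.9557 Mb the percentiles were 44.9, 48.6 and 62.4 in WT and 40.6, 43.9 and 24.6 in A384T, with a gap of about 1 point between the nearest libraries. At 60.8127 Mb they were 27.0, 13.6 and 36.5 in WT and 12.6, 4.57 and 9.72 in A384T, again with the nearest libraries about 1 point apart. The peak ranked there had the left summit in every WT library and the right summit in every A384T library, so different summits were compared. Compared within replicate numbers instead, WT ranked higher in all 3 numbers for 5 of the 9 (also at 60.9440 and 61.0347 Mb) and A384T for 0 of the 9, against 23.5% and 22.0% of the 962.

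These rank calls depended on the measure. Ranked by fold enrichment 0 of the 9 were called in either direction, against 15.9% of the 962 regions. The region at 60.9400 Mb was then at 90.6, 73.4 and 63.9 in WT and at 41.7, 73.0 and 11.5 in A384T, where A384T replicate 2 lay above WT replicate 3. Without WT replicate 2 the count by -log10 q was 7 of 10, where 33.7% of all regions then compared were called, and without A384T replicate 3 it was 2 of 9, against 30.1%. Joining peaks by summits within 200 bp gave 2 of 8, against 24.2%. An exact permutation test of 3 against 3 cannot go below 0.1 for a single region.

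**Figure D3:**
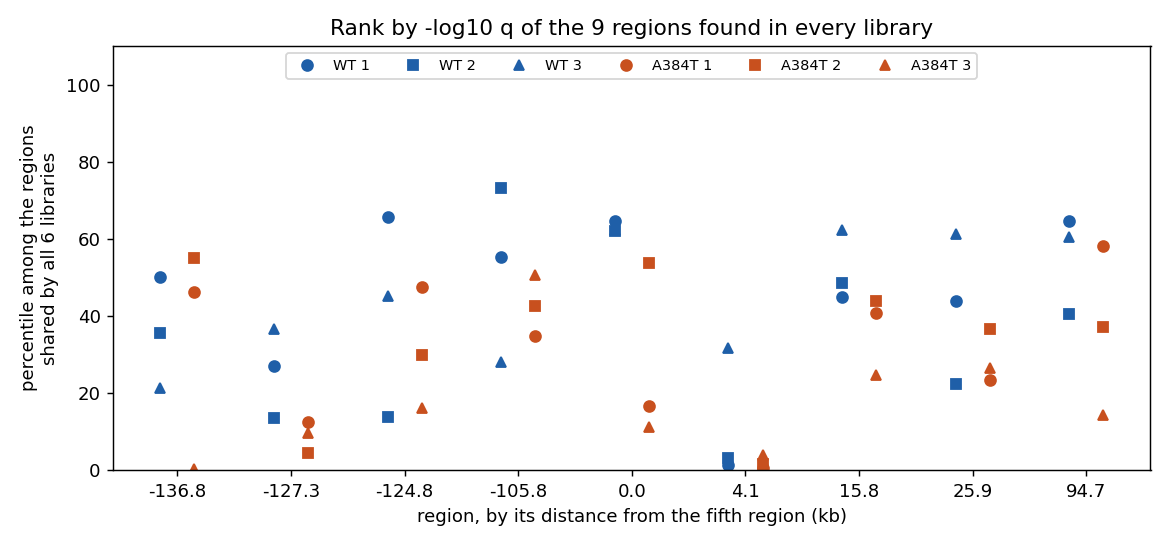
Percentile by -log10 q among the 962 regions shared by all 6 libraries (y axis) of the 9 regions of the cluster, ordered by distance in kb from the region at 60.9400 Mb (x axis); points are single libraries, WT in blue and A384T in orange, shapes the replicate. The genotypes do not overlap at -127.3, 0.0 and 15.8 kb, the regions at 60.8127, 60.9400 and 60.9557 Mb.

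A further 7 regions had a peak in 4 or 5 libraries, and none of them had one in WT replicate 2. The region at 60.9703 Mb (60969966 to 60970553) was the only one of 5 libraries, with A384T folds of 14.7, 15.2 and 7.04 beside 27.7 in WT replicate 1 and 6.58 in WT replicate 3. The other 6 had a peak in replicates 1 and 3 of WT and 1 and 2 of A384T. They were 60.8387 Mb (60838342 to 60838973) at the edge of the left group, 60.9645 Mb (60964242 to 60964712), 60.9686 Mb (60968370 to 60968813) and 60.9980 Mb (60997688 to 60998311) further right, and 61.0421 Mb (61041935 to 61042325) and 61.0474 Mb (61047075 to 61047645) beyond the single region. The strongest peak among these 6 was that of 60.8387 Mb in WT replicate 1, at the 91.2 percentile of its list, with 28.5 in WT replicate 3 and 74.3 and 64.3 in A384T replicates 1 and 2. Both of the last were close to the cutoff in WT replicate 3, 61.0421 Mb with a -log10 q of 10.03 and 61.0474 Mb with 10.2.

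No region of the cluster was restricted to one genotype in every library. The count of regions with a peak in all 3 WT and no A384T library was 0, as was the reverse, where the genome-wide shares of the 24765 regions were 0.0121% and 0.186%. Of regions seen 2 or more times in one genotype and never in the other, the cluster held 1 for WT and 0 for A384T, against 0.872% and 0.763% of all regions. The WT region was 61.0432 Mb (61043080 to 61043308), with a fold of 12.5 in WT replicate 1 and 7.24 in WT replicate 3, at the 33.1 and 13.2 percentile of their lists. Both peaks were weak, and the region was lost when only peaks with a -log10 q of at least 20 were kept.

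As a share of each list the cluster held 2.80, 5.15 and 5.12 of every 1000 WT peaks, and 1.71, 3.46 and 5.37 of every 1000 A384T peaks. The means were 4.36 ± 1.35 and 3.51 ± 1.83 per 1000 (SD, n = 3 each). The difference of -0.849 was smaller than the SD of either genotype (exact permutation test, two-sided, p = 0.7) and ran from -1.78 without A384T replicate 3 to 0.0521 without A384T replicate 1. It was -1.84 after dropping peaks under a -log10 q of 20 (exact permutation p = 0.2). Within the 49 bp libraries the means were 5.14 for WT and 4.41 for A384T (n = 2 each). The replicate 1 libraries, with 51 bp tags, are a single pair.

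When all lists were shortened to 1746 peaks, the length of the shortest, by -log10 q, the cluster held 8, 9 and 9 WT peaks against 4, 8 and 7 A384T peaks. A384T was the lower within each replicate number, by 4, 1 and 2 peaks, but the lowest WT and the highest A384T library were equal at 8. The means were 8.67 ± 0.577 and 6.33 ± 2.08 (SD, n = 3 each), a difference of -2.33 (two-sided exact permutation test, p = 0.2; p = 0.25 with the replicate number as a block, the smallest that 3 pairs allow). Leaving out each library in turn gave -3.17 to -1.17. The genotypes no longer met when peaks were ranked by fold (-3) or first limited to a -log10 q of at least 20 (-3.67), each with an exact permutation p of 0.1, the smallest possible. The -log10 q limit also shortens the shortest list, so the common length was then below 1746 peaks. Within the 49 bp libraries the means were 9 and 7.5 (n = 2 each).

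At this length 10 regions remained, of which 8 were present in all 3 WT libraries and 3 in all 3 A384T libraries. Genome-wide 25.2% of the 3744 regions at this length were in all 3 WT libraries and 23.1% in all 3 A384T libraries. The 3 regions in every list at this length were 60.8152, 60.9557 and 61.0347 Mb. A384T replicate 1 had the fewest: it lacked 60.8342, 60.9400 and 60.9659 Mb, which the 5 other libraries had, and without it the difference in peaks was -1.17. These 3 stood at the 90.3, 82.2 and 85.6 percentile of its full list, so absence here is a rank below the cut and not a missing peak. The region at 60.9440 Mb was in 2 WT lists and no A384T list, the only one of its class in the cluster, and 0 regions had the reverse pattern, against 9.08% and 9.62% of the 3744. One of those WT lists was that of replicate 2, which was not shortened and held the region at its 6.62 percentile. None was in all 3 lists of one genotype and absent from the other, against 3.21% for WT and 3.55% for A384T.

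**Figure D4:**
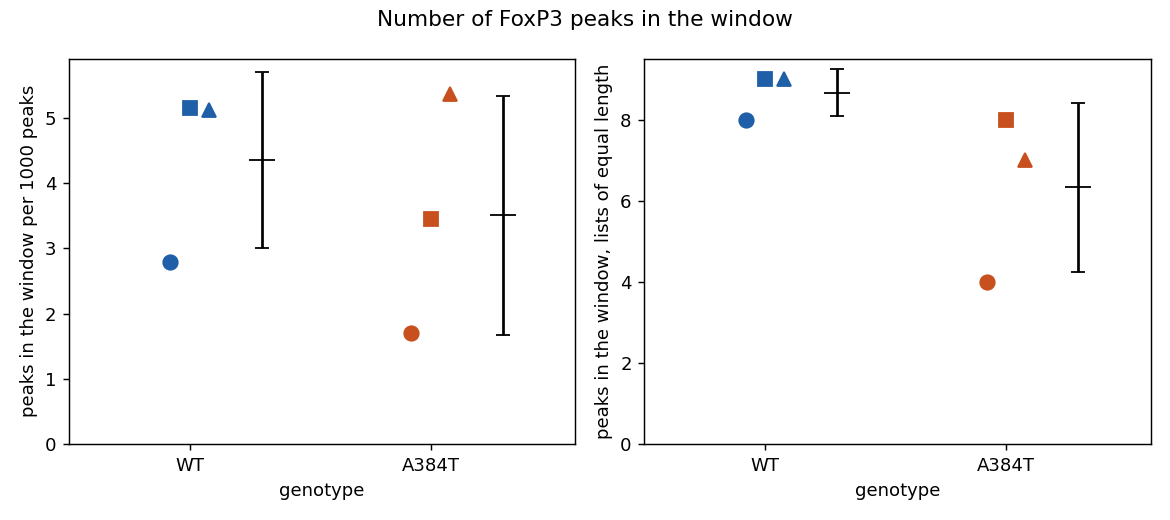
Peaks of the window per 1000 peaks of each list (left) and number of window peaks when every list holds its 1746 strongest (right), by genotype. Circles, squares and triangles are replicates 1, 2 and 3, and bars the mean ± SD (n = 3); the genotypes overlap on the left and meet at 8 peaks on the right.

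Along the window, the shares of peaks in its parts overlapped between genotypes. Cut by coordinates into 3 parts of 100 kb and a last part of 50 kb, the window held 22, 10, 22 and 5 regions. The third part, from 60950000 to 61050000, had 36.2, 33.3 and 55.0% of a library's cluster peaks in WT and 48.4, 52.2 and 45.5% in A384T, a difference of 7.16 points. Among the 4 parts this was the lowest p (two-sided exact permutation test, p = 0.4, and 0.8 after Benjamini-Hochberg adjustment over the 4). Without WT replicate 3 the difference was 13.9 points and without WT replicate 2 it was 3.07. Dropping peaks under a -log10 q of 20 made it 11.5 points, and there, as without WT replicate 3, the genotypes did not overlap (exact permutation p = 0.1, the smallest possible). The last part held no region of all 6 libraries, and WT replicate 2 and A384T replicate 3 had no peak in it.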

How the data were processed

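FoxP3 ChIP-seq libraries were compared between WT and A384T Treg cells, with groups and replicate numbers from the sample titles. Bowtie2, MACS2 and the build mm9 are named in the submitters' processing notes. Per the file headers, peaks were called per library with MACS 2.1.0.20140616, each against its own control library, at a q-value cutoff of 1e-10 with 1 tag kept per position. The deposited lists give the pileup (a signal), fold enrichment (a ratio) and -log10 p and q for each peak. They have no scale shared between libraries, so presence, ranks and within-library ratios were compared.

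Chromosomes 1 to 19, X and Y were kept. The same replicate numbers deviated together for replicates 1 and 3, and only weakly for replicate 2. Deviations from the genotype mean rank over 962 shared regions correlated at 0.44, 0.12 and 0.37 for replicates 1, 2 and 3. Between WT and A384T libraries of unlike number the correlations ran from -0.35 to 0.02. Deviations from a genotype mean cancel out over its libraries, so positive correlations for like numbers push those for unlike numbers down. The contrast between the 2 kinds of pair is therefore partly arithmetic. There were 7 comparisons of values per library, by two-sided exact permutation tests. Regions named are those in at least 4 libraries, those in at least 2 libraries of 1 genotype alone, and the best-ranked of the rest. The 2 regions of A384T replicate 2 alone were named after their values were seen. The window, members and lists were chosen with earlier results of these data known, and the summit comparison and the rank calls within replicate numbers were chosen after seeing the data. As alternatives, other thresholds, joining rules, rank measures, list lengths and tile lengths, replicate blocks and leaving out each library were run. Region joining was run on simulated, widely spaced sites with at most 1 peak per library. That simulation does not test the joining of adjacent, double or bridging peaks. Python 3.11.15, numpy 2.4.6, pandas 2.3.3 and matplotlib 3.10.9 were used.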

Additional observations from a re-analysis of the deposited data

How the results depend on the processing

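Of 153 alternatives to 14 results, 135 kept the direction of a tested difference, stayed within 1.5 times a count or share, or left the summit gap within the larger SD of the summits. A further 13 moved the value and 5 turned its sign, and the cause was not tested in any. The 135 include 7 replicate-block alternatives, which repeat the main difference by construction and change only its p. Counting any overlap with the window gave the main value wherever it was run. Counts of regions in every library of one genotype alone were 0 and mostly stayed 0. The 135 is thus no measure of robustness. No exact test could pass 0.05 in any setting, since 0.1 is the smallest p of 3 against 3 and 0.25 that of 3 pairs, so the replicate block (p from 0.25 to 1) could change no call.

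Leaving out 1 library at a time, the difference in peaks per 1000 ran from -1.78 to 0.0521 (without A384T replicate 1), in the top percentile from -12.7 to 2.99 (without A384T replicate 3), and in the share of the first part from -8.87 to 0.852 (main -3.47, positive without WT replicate 2). For the fourth part it ran from -2.37 (without A384T replicate 1) through -2.14 (without WT replicate 2) to 2.47, around 0.135. The count of regions of at least 2 WT and no A384T libraries ran from 0 (without WT replicate 1 or 3) to 3 (without A384T replicate 1), that of the A384T class from 0 to 4 (without WT replicate 1), and that of all WT and no A384T from 0 to 1 (without WT replicate 2). Rank calls ran from 2 to 7. The summit gap ran from 359 to 406 bp (without A384T replicate 3); without WT replicate 3 the region splits in 2 and has no gap.

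With a -log10 q of at least 20 the WT class of at least 2 held 0 regions, the rank calls were 1 of 4 regions, and 0.0796% of tiles were as dense. Ranks by fold gave 0 calls and a summit gap of 25 bp. Joining summits within 200 bp gave 1 region of at least 2 A384T and no WT libraries.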

Other observations

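The other 4 of the 5 regions whose strongest summits lay at least 100 bp apart by genotype were on chromosome 8 from 84082349 to 84083023 (163 bp), chromosome 9 from 32735749 to 32737220 (140 bp), chromosome 11 from 52127441 to 52128255 (124 bp) and chromosome 4 from 44035137 to 44035825 (120 bp), all in mm9. On chromosome 9, as in the cluster, the A384T summits had the higher coordinates, and on the other 3 the WT summits did. Of the 962 regions found in all 6 libraries, 123 (12.8%) had 2 or more peaks in at least 1 library, and 2 of these 123 (1.63%) were among the 5. In the cluster 2 of the 9 regions had such double peaks, 60.8127 Mb and 60.9557 Mb. At 60.9557 Mb the strongest summits of all 6 libraries lay within 47 bp.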
